A study of Mus musculus with 9 samples.

Results

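The genes of glutathione synthesis, recycling and peroxide reduction were examined in RAW264.7 cells, a mouse macrophage line from a virus-induced tumor. The set was a fixed list of 10 symbols, all of which were found among the 55401 genes of the expression table. They were the synthesis genes Gclc, Gclm and Gss, the glutathione-degrading enzyme gene Chac2, the cystine transporter genes Slc7a11 and Slc3a2, the recycling genes Gsr and Glrx, and the peroxidase genes Gpx1 and Gpx4. Wild-type cells were treated with DMSO as vehicle, with DMSO and LPS (named LPS below) or with LPS and skatole (LPS + Ska), and RNA was sequenced from 3 samples of each group, numbered 5, 6 and 7. LPS is a bacterial cell wall molecule that drives macrophages to the M1 state. Skatole is an indole that gut microbes make from tryptophan, and it binds the aryl hydrocarbon receptor (AhR). The labels give 24 h of treatment for every group, there was no group with skatole and no LPS, and the dose of skatole is not given in the sources used here for this experiment. All samples came from 1 cell line, and no source used here says that they were separate cultures, so the p-values measure the spread between these samples, which may be technical.

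Glutathione is a tripeptide of glutamate, cysteine and glycine and the main small thiol of the cell. Glutamate-cysteine ligase, made of a catalytic (Gclc) and a modifier (Gclm) subunit, catalyses the rate-limiting step, and glutathione synthetase (Gss) adds glycine. Cysteine is often the scarce precursor, and system xc-, made of the light chain Slc7a11 and the heavy chain Slc3a2, imports its oxidized form cystine in exchange for glutamate. The selenoprotein peroxidases Gpx1 and Gpx4 spend glutathione to reduce hydrogen peroxide and lipid peroxides, glutaredoxin (Glrx) uses it to free protein thiols, and glutathione reductase (Gsr) returns the oxidized form with NADPH. Activated macrophages produce oxidants, and several of these genes are known targets of the transcription factors Nrf2, which binds the antioxidant response element, and Atf4, which binds the CARE motif (C/EBP-ATF response element).

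The values were TPM, a share of each library that is corrected for transcript length and scaled to a common sum, so the depth of each library is unknown. The 3 columns of the LPS-treated cells were tied, as were those of LPS + Ska. Replicate 5 equalled the mean of replicates 6 and 7 within 1e-05 TPM in 17950 of 17950 genes with LPS and in 17658 of 17658 genes with LPS + Ska that had all columns above 0, against 10 of 15721 genes with DMSO. All 10 glutathione genes were tied in both groups, so that none has more than 2 independent values in either group. For each gene 2 values were recovered with an assumed spacing, closer together than replicates 6 and 7. The SD over the tied columns is the difference between these values. Each call of the 10 glutathione genes below is given beside the result from these 2 recovered values. In the fit of the deposited columns, every call of a macrophage marker or further pathway gene was also made with them. Any 2 of the tied columns still hold both independent values, so leaving out 1 column in these groups removes no independent value. The LPS response genes Nos2, Il1b, Il6, Ptgs2, Tnf, Acod1, Cxcl10 and Il1a summed to 78.9 to 132 TPM with DMSO, 699 to 726 with LPS and 598 to 690 with LPS + Ska. Tnf, Acod1 and Ptgs2 weigh most in the sums of the LPS-treated groups. From LPS to LPS + Ska, mean TPM fell from 4.35 to 0.259 for Il6 and from 18.1 to 3.94 for Il1a. It fell from 40.0 to 13.6 for Cxcl10 and from 28.1 to 10.2 for Il1b. Means of Nos2, Acod1, Ptgs2 and Tnf were 37.5, 216, 158 and 210 TPM with LPS and 28.5, 178, 203 and 207 with LPS + Ska. All 8 macrophage markers were detected at 1 TPM or more. Their summed level, in which Lyz2 weighs most, was 12314 to 13275 TPM with DMSO, 7273 to 7673 with LPS and 13560 to 13853 with LPS + Ska. Markers of lymphoid, granulocytic, epithelial, endothelial, fibroblast and cartilage cells stayed below 1 TPM, with sums of 0 to 0.542 TPM. Transcripts of the mitochondrial genome took 7.20 to 9.64% of TPM with DMSO, 10.1 to 10.7% with LPS and 9.94 to 11.9% with LPS + Ska.

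Promoter sequences are shown for Gclm and Slc7a11, the pair of genes that rose in LPS + Ska compared with LPS, and for Slc3a2, the partner of Slc7a11, whose values overlapped between these groups. Each is the 250 bases before the RefSeq transcription start (build GRCm38.p6), 5′ to 3′ on the strand of the gene. Capitals mark matches to the antioxidant response element core (TGACNNNGC) or to the CARE core (TGATGNAA), searched on both strands. The windows are chr3:122245307-122245556 on the plus strand for Gclm, chr3:50443614-50443863 on the minus strand for Slc7a11 and chr19:8713898-8714147 on the minus strand for Slc3a2. The Slc3a2 window lies inside the annotated span of the gene (chr19:8706882-8723369), and the bases before the upstream end of that span were not searched.
Gclm: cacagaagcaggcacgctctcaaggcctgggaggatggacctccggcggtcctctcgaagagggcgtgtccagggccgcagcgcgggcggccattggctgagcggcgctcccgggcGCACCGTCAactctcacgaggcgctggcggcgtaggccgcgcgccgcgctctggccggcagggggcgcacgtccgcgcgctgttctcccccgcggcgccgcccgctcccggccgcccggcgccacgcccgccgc
Slc7a11: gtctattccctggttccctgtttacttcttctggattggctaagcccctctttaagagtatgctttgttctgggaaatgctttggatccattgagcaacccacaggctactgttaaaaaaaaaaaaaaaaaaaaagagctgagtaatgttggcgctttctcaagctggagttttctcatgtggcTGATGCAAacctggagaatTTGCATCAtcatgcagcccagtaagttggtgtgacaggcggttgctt
Slc3a2: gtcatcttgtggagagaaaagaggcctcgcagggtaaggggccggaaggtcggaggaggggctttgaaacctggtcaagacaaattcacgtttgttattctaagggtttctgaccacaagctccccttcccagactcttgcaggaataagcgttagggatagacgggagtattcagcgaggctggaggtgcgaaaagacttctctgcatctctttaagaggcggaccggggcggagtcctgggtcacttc
The antioxidant response element core lay on the reverse strand of the Gclm promoter, from -134 to -126 relative to the start, and 12.4% of all 32851 RefSeq windows of 300 bases (250 before to 50 after the start) held one. The Slc7a11 promoter held 2 CARE cores, from -66 to -59 on the strand of the gene and from -47 to -40 on the other strand, and 3.97% of all windows held one. Of the 8 glutathione genes with a window in the table (Gclc and Gsr were not in it), only Gclm held the antioxidant response element core and only Slc7a11 the CARE core. Counted by gene, 13.99% and 4.51% of all 27025 genes with a window held these cores in at least 1 window. The AhR core (GCGTG, both strands) was present for 4 of the 8, Gclm, Gpx1, Gpx4 and Gss. It was found in 32.4% of all windows and for 35.15% of all genes with a window. No matches of different motifs overlapped. The matches describe the letters only, and binding was not measured.

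TPM is corrected for length, so levels can be set beside each other. With DMSO the order of mean TPM was Gpx1 (800), Gpx4 (402), Slc3a2 (264), Gsr (160), Gclc (144), Gclm (101), Glrx (79.0), Gss (30.8), Chac2 (10.1) and Slc7a11 (6.73). Of these neighbours, only Gsr and Gclc had overlapping columns. With LPS the order changed for Gclc, which came to 68.5 TPM, below Gclm at 71.3 TPM with overlapping columns, for Glrx (108), which passed Gsr, Gclc and Gclm, and for Slc7a11 (27.8), which passed Gss and Chac2. With LPS + Ska Gclm stood at 198 TPM, its columns overlapping those of Gpx4 (230) above it and Slc3a2 (170) below it. The recovered values with LPS + Ska did not overlap: 186 to 210 TPM for Gclm, 217 to 243 for Gpx4 and 155 to 185 for Slc3a2. Nor did those of Gclc (68.0 to 68.9 TPM) and Gclm (69.8 to 72.7 TPM) with LPS. Gpx1 had the highest level of the 10 genes in every group.

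**Figure D1:**
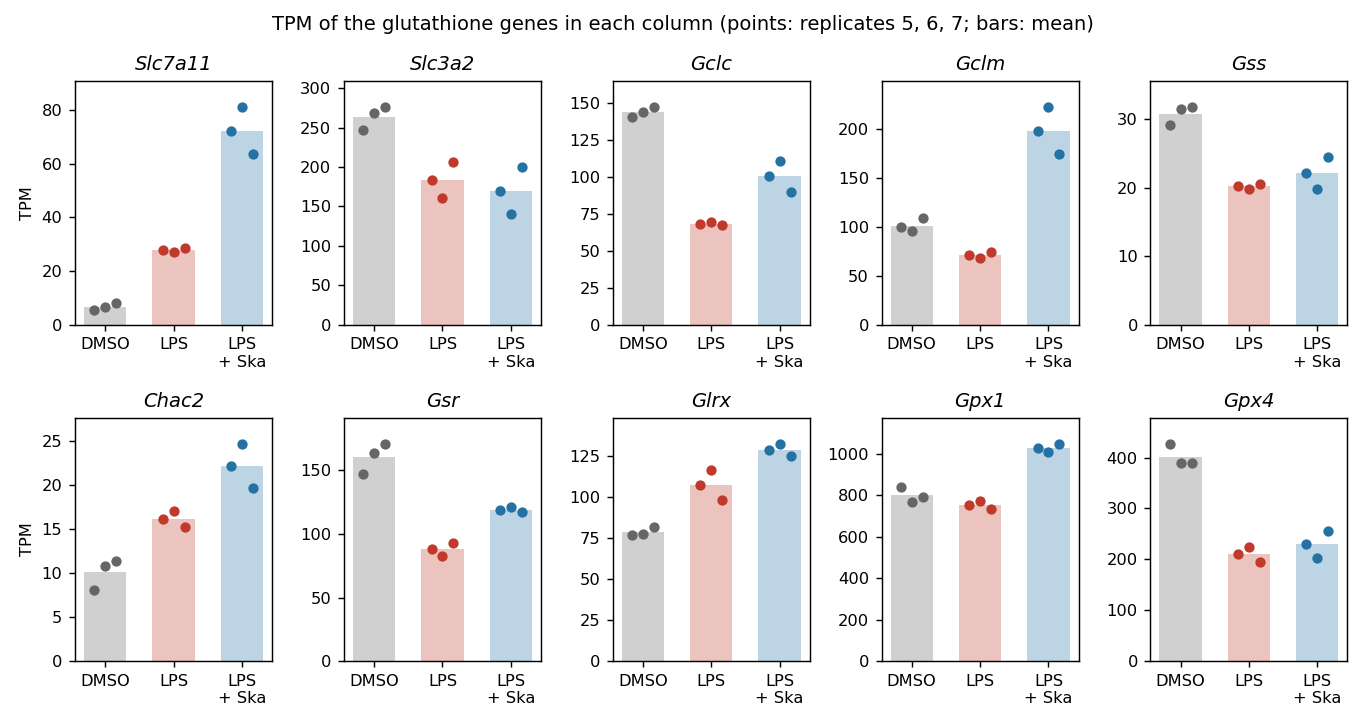
TPM of the 10 glutathione genes (vertical axes from 0, each on its own scale) with DMSO, LPS and LPS + Ska. Points are replicates 5, 6 and 7 from left to right and bars their mean; with LPS and with LPS + Ska replicate 5 is the mean of the others. Gclm with LPS + Ska lies between 174 and 222 TPM, above all columns of the other groups, and Slc7a11 rises from 5.65 to 8.08 TPM with DMSO to 63.4 to 81.0 TPM with LPS + Ska.

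The first comparison, LPS against DMSO, asks how M1 activation moved these genes. Slc7a11 and Chac2 rose, while Gclc, Gss, Gsr and Gpx4 fell. Thus 2 genes rose and 4 fell at an adjusted p (limma, Benjamini-Hochberg over the 12819 genes tested) below 0.05 together with a fold change over 1.5 or under 0.67. Of all genes tested, 12.7% were called higher and 20.0% lower by this rule. Of all these calls 38.9% were higher, and 48.8% with median-ratio scaling of the columns, where 2 of the 10 genes rose and 3 fell. The median log2 fold change of the 10 genes was -0.51, against -0.067 over all genes tested. Log2 fold changes are on the log2(TPM + 1) scale, where 1 is a 2-fold difference, and carry their SE.

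Among the synthesis genes, Gclc (chr9:77754535-77794485, build mm10 as for all genes here, each annotated as protein-coding) was at 141, 144 and 147 TPM with DMSO and at 68.5, 69.3 and 67.6 TPM with LPS in replicates 5, 6 and 7. The columns of the groups did not overlap, and every LPS column lay below the lowest DMSO column. The log2 fold change was -1.06 ± 0.072 (adjusted p = 2.8e-06, and 8.9e-06 with the recovered values). Gclm (chr3:122245557-122270732) was at 99.4, 95.7 and 109 TPM with DMSO and at 71.3, 68.3 and 74.2 TPM with LPS. Its columns were also separate, but the log2 fold change of -0.50 ± 0.089 (adjusted p = 0.0010 in both fits) stayed inside the fold limit. Gss (chr2:155563181-155592810) had 29.1, 31.5 and 31.8 TPM with DMSO and 20.2, 19.8 and 20.5 TPM with LPS. It fell by 0.59 ± 0.085 on the log2 scale (adjusted p = 2.8e-04, and 6.6e-04 with the recovered values), next to the fold limit. That call was lost at -0.50 with median-ratio scaling of the columns, at -0.55 after rescaling without mitochondrial-genome and ribosomal protein genes, and at -0.57, -0.56 and -0.57 without DMSO replicate 6, DMSO replicate 7 or LPS replicate 6. By annotated span, introns included, Gss overlaps Acss2 on the opposite strand over 22544 bases. Acss2 had mean TPM of 17.4 with DMSO and 7.80 with LPS. The library kit as described does not mark strand, so reads in a part shared by both genes may not be told apart. Overlap of exons was not measured, so how many reads this concerns is unknown.

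Chac2, a cytosolic enzyme that splits glutathione (chr11:30976707-30986350), was at 8.12, 10.8 and 11.4 TPM with DMSO and at 16.1, 17.0 and 15.3 TPM with LPS. All LPS columns exceeded all DMSO columns. It rose by 0.64 ± 0.13 on the log2 scale (adjusted p = 0.0022, and 0.0057 with the recovered values), a call that was lost at 0.50 without DMSO replicate 5, the lowest column. The gene lies wholly within Asb3 on the opposite strand, whose mean was 8.39 TPM with DMSO and 11.0 with LPS.

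The transporter subunits moved apart. Slc7a11 (chr3:49892526-50443614) was at 5.65, 6.47 and 8.08 TPM with DMSO and at 27.8, 27.1 and 28.5 TPM with LPS, with wide separation of the groups. Its log2 fold change was 1.91 ± 0.12 (adjusted p = 2.0e-06, and 1.8e-05 with the recovered values). Slc3a2 (chr19:8706882-8723369), which also pairs with other amino acid transporters, had 246, 269 and 276 TPM with DMSO and 183, 161 and 206 TPM with LPS. The columns did not overlap, and the log2 fold change of -0.53 ± 0.13 (adjusted p = 0.0058, and 0.0018 with the recovered values) was inside the fold limit. Without LPS replicate 7 it passed the limit, at -0.61.

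Of the recycling genes, Gsr (chr8:33652523-33698163) was at 147, 164 and 170 TPM with DMSO and at 87.8, 82.8 and 92.8 TPM with LPS. It fell by 0.86 ± 0.068 on the log2 scale (adjusted p = 7.0e-06, and 5.0e-05 with the recovered values), with no overlap. Glrx (chr13:75839868-75850154) was at 77.3, 77.8 and 81.9 TPM with DMSO and at 108, 117 and 98.2 TPM with LPS. These columns were separate in the other direction, with a log2 fold change of 0.44 ± 0.068 (adjusted p = 4.3e-04) inside the limit. Of the peroxidases, Gpx4 (chr10:80047166-80056439) had 427, 389 and 390 TPM with DMSO and 210, 225 and 195 TPM with LPS. All LPS columns lay below all DMSO columns, and the log2 fold change was -0.93 ± 0.089 (adjusted p = 2.2e-05, and 3.1e-05 with the recovered values). Gpx1 (chr9:108338903-108340343) was at 839, 770 and 791 TPM with DMSO and at 754, 773 and 735 TPM with LPS. Its columns overlapped, and the log2 fold change of -0.085 ± 0.048 (adjusted p = 0.16) did not pass the test and was 0.0061 with median-ratio scaling. The recovered LPS values of Gpx1 (744 to 763 TPM) lay below its DMSO columns, with an adjusted p of 0.23 in limma.

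The macrophage marker genes moved in the same comparison: Lyz2, Spi1 and Csf1r fell by 1.05, 0.81 and 0.67 on the log2 scale, while Adgre1, Itgam, Cd68, Fcgr1 and Cd14 were not called. The Csf1r call was lost at -0.58 when recovered values were scaled by median ratio. Their part in the result was not tested, and in bulk RNA less RNA per cell and fewer cells of a state cannot be told apart.

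The second comparison, LPS + Ska against LPS, asks what skatole did in LPS-treated cells. It shares the LPS columns with the first. Gclm and Slc7a11 rose and no glutathione gene fell, so that limma called 2 of 10 genes higher and 0 lower. By the same rule of adjusted p and fold limit, 3.35% of all genes tested were higher and 6.14% lower. With the recovered values, where the same number of the 10 was called, these shares were 2.82% and 4.99%. At an unadjusted p below 0.05 the 10 genes gave 7 higher and 0 lower, and the share of all genes at that limit is not given here. The columns gave 9 of the 10 log2 fold changes above 0, with a median of 0.43 against -0.096 over all genes. With the adjusted p alone, 7 of the 10 passed, all higher, where 8.89% of all genes passed higher and 19.7% lower.

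Gclm was at 71.3, 68.3 and 74.2 TPM with LPS and at 198, 222 and 174 TPM with LPS + Ska, so that the lowest LPS + Ska column was far above the highest LPS column. It rose by 1.46 ± 0.089 on the log2 scale (adjusted p = 1.6e-05, and 1.3e-04 with the recovered values). Gclm overlaps the non-coding gene Gm17494 on the opposite strand, which had mean TPM of 12.2 with LPS and 16.7 with LPS + Ska. The catalytic subunit Gclc went from 68.5, 69.3 and 67.6 TPM to 101, 111 and 90.3 TPM, also with no overlap. Its log2 fold change of 0.54 ± 0.072 (adjusted p = 9.1e-04, and 0.0029 with the recovered values) was just inside the fold limit, and passed it at 0.65 with median-ratio scaling and at 0.62 without LPS + Ska replicate 7.

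Slc7a11 was at 27.8, 27.1 and 28.5 TPM with LPS and at 72.2, 81.0 and 63.4 TPM with LPS + Ska. All columns with skatole were higher, and the log2 fold change was 1.34 ± 0.12 (adjusted p = 1.4e-04, and 0.0016 with the recovered values). Slc3a2, at 183, 161 and 206 TPM with LPS and 170, 140 and 200 TPM with LPS + Ska, overlapped throughout. Its log2 fold change of -0.11 ± 0.13 (adjusted p = 0.54) was 0.016 without LPS + Ska replicate 6.

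The other 6 genes did not reach the fold limit. Gpx1 was at 754, 773 and 735 TPM with LPS and at 1028, 1007 and 1048 TPM with LPS + Ska. The columns were separate and close within each group, and the log2 fold change was 0.45 ± 0.048 (adjusted p = 3.3e-04, and 0.0036 with the recovered values). Gsr went from 87.8, 82.8 and 92.8 TPM to 119, 121 and 117 TPM, a log2 fold change of 0.43 ± 0.068 (adjusted p = 0.0020, and 0.011 with the recovered values), again with no overlap. Glrx had 129, 133 and 126 TPM with LPS + Ska, above its 98.2 to 117 TPM with LPS, and a log2 fold change of 0.26 ± 0.068 (adjusted p = 0.018, and 0.039 with the recovered values). Chac2 had 22.2, 24.7 and 19.7 TPM with LPS + Ska, above its 15.3 to 17.0 TPM with LPS. Its log2 fold change of 0.43 ± 0.13 had an adjusted p of 0.034, which was 0.093 with the recovered values. For Gss (19.8 to 24.5 TPM with LPS + Ska) and Gpx4 (203 to 257 TPM) the columns overlapped those with LPS, and the log2 fold changes were 0.12 ± 0.085 and 0.13 ± 0.089 (adjusted p = 0.30 and 0.32). The recovered values of Gpx4 overlapped too. Those of Gss were separate, at 20.0 to 20.4 TPM with LPS and 21.0 to 23.3 with LPS + Ska (adjusted p = 0.38 in limma).

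**Figure D2:**
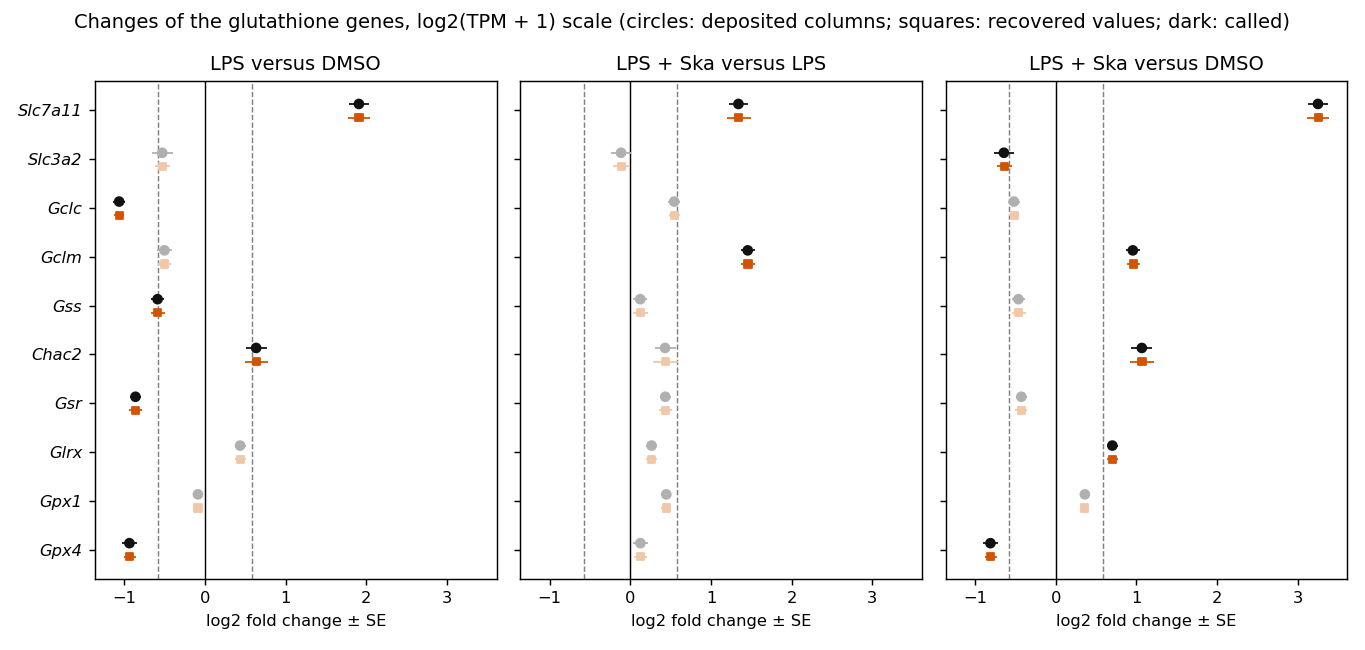
Log2 fold change of TPM + 1 (horizontal axis, bars are the SE) of each glutathione gene in the 3 comparisons, with circles for the deposited columns and squares for the recovered values. Dark symbols passed both the adjusted p and the fold limits, which are the dashed lines; in LPS + Ska against LPS, Gclm (1.46) and Slc7a11 (1.34) lie outside them and Gclc (0.54) just inside.

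This comparison depends on how the columns are scaled. With median-ratio scaling, 4.64% of all genes were called higher and 4.21% lower, so that 52.4% of all calls were higher against 35.3% without it, and 3 of the glutathione genes were called higher, with Gclc beside Gclm and Slc7a11. Among the macrophage markers, without that scaling, Lyz2 rose by 1.19 on the log2 scale, Fcgr1 fell by 0.59, and the other 6 were not called. With median-ratio scaling Lyz2 was called at 1.29, Fcgr1 lost its call at -0.49, and Cd14, at 0.54 without it, was called higher at 0.65. The Fcgr1 call was also lost after rescaling without mitochondrial-genome and ribosomal protein genes and, at -0.58, without LPS replicate 7. Their part in the result was not tested.

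The third comparison, LPS + Ska against DMSO, shares its samples with the comparisons above and gives the net position against vehicle. Slc7a11, Chac2, Gclm and Glrx rose, and Gpx4 and Slc3a2 fell, which made 4 of 10 genes higher and 2 lower, where 11.4% of all genes tested were higher and 25.3% lower. The median log2 fold change of the 10 genes was -0.032, against -0.18 over all genes. Median-ratio scaling moved the median of all genes by 0.17, made 49.6% of the calls higher against 31.0%, and left 4 glutathione genes higher and 1 lower.

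Slc7a11 had the largest difference of the 10 genes, 3.25 ± 0.12 on the log2 scale (adjusted p = 1.3e-07, and 1.7e-06 with the recovered values), with 72.2 ± 8.79 TPM (SD, n = 3 tied columns) against 6.73 ± 1.23 (SD, n = 3). Chac2 rose by 1.07 ± 0.13 (adjusted p = 8.1e-05, and 3.5e-04 with the recovered values), from a mean of 10.1 to 22.2 TPM. Gclm rose by 0.96 ± 0.089 (adjusted p = 1.5e-05, and 3.0e-05 with the recovered values). It thus went from 101 TPM with DMSO to 71.3 with LPS and 198 with LPS + Ska, with no overlap between any groups. Glrx rose by 0.70 ± 0.068 (adjusted p = 1.9e-05, and 5.1e-05 with the recovered values), having the order DMSO, LPS and LPS + Ska in its means of 79.0, 108 and 129 TPM.

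Gpx4 was at 427, 389 and 390 TPM with DMSO and at 230, 203 and 257 TPM with LPS + Ska, and fell by 0.81 ± 0.089 (adjusted p = 4.5e-05, and 4.9e-05 with the recovered values). Slc3a2 fell by 0.64 ± 0.13 (adjusted p = 0.0017, and 5.9e-04 with the recovered values), a call lost at -0.45 with median-ratio scaling and at -0.51 without LPS + Ska replicate 6. The remaining 4 genes passed the adjusted p but stayed inside the fold limits. Gclc and Gsr had values between those of the other groups, with log2 fold changes against DMSO of -0.52 ± 0.072 and -0.43 ± 0.068, and Gclc passed the limit at -0.59 without LPS + Ska replicate 6. Gss was at -0.46 ± 0.085 and Gpx1 at 0.36 ± 0.048.

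The subunits of the ligase and of the transporter were also compared as ratios within a column. Gclm to Gclc was 0.665 to 0.737 with DMSO, 0.986 to 1.10 with LPS and 1.93 to 2.0 with LPS + Ska. Slc7a11 to Slc3a2 was 0.0229 to 0.0293, 0.138 to 0.169 and 0.317 to 0.577 in the same order. Neither ratio overlapped between any groups. The ratio of Gclm to Gclc differed by 0.57 on the log2 scale between LPS and DMSO, by 0.92 between LPS + Ska and LPS and by 1.48 between LPS + Ska and DMSO. The differences for Slc7a11 to Slc3a2 were 2.59, 1.49 and 4.08. Each of the 6 exact two-sided permutation tests gave p = 0.1 (0.1 after Benjamini-Hochberg adjustment), the smallest that 3 columns against 3 allow, so none could pass 0.05. With 2 independent values in each of LPS and LPS + Ska the smallest would be 0.333 between them and 0.2 against DMSO.

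**Figure D3:**
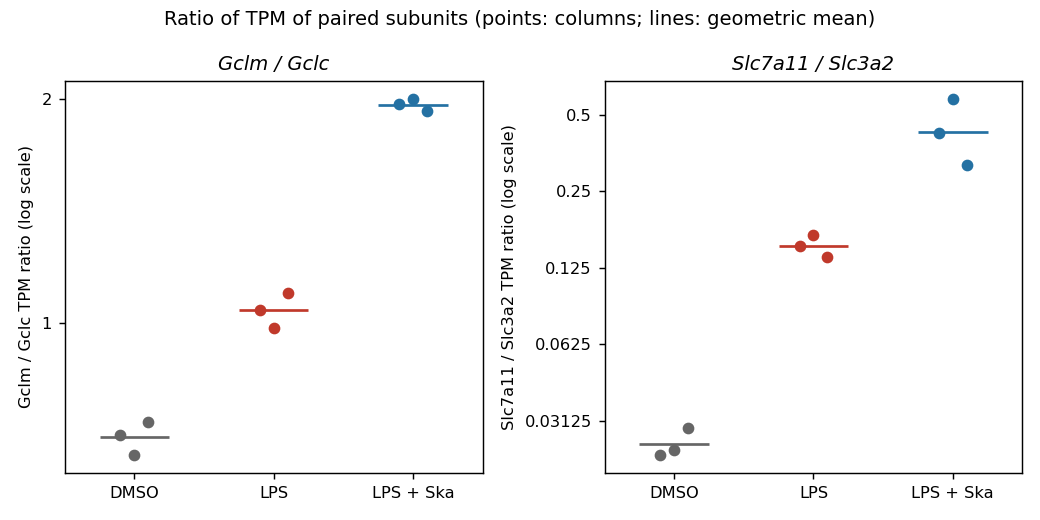
Ratio of Gclm to Gclc TPM (left) and of Slc7a11 to Slc3a2 TPM (right) in each column, on log axes with different ranges, with points for replicates 5, 6 and 7 from left to right and lines for the geometric mean of each group. Both ratios are lowest with DMSO and highest with LPS + Ska, where Gclm to Gclc is 1.93 to 2.0.

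A list of 46 further genes of glutathione breakdown, precursor supply, transport, other peroxidases and glutaredoxins, glyoxalase reactions, selenoprotein synthesis and other Slc3a2 light chains was read in the same fit. Of these, 29 had a mean of at least 1 TPM and were tested. The 17 below that level included Ggt1, Ggt5 and Ggt6, which cleave extracellular glutathione, and the peroxidases Gpx2, Gpx3, Gpx5, Gpx6, Gpx7 and Gpx8. With LPS 2 of the 29 rose and 5 fell, with LPS + Ska against LPS 3 rose and 1 fell, and with LPS + Ska against DMSO 3 rose and 5 fell, where the shares over all genes are those given for each comparison above. The medians of the 29 genes were -0.098, 0.062 and 0.058 on the log2 scale.

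For breakdown, 2 of 5 tested genes fell with LPS, and both rose with LPS + Ska against LPS, a comparison that uses the same LPS columns. Dpep2, a membrane dipeptidase, was at 44.0, 42.6 and 39.2 TPM with DMSO, at 6.65, 7.29 and 6.00 TPM with LPS and at 13.2, 12.1 and 14.3 TPM with LPS + Ska. The groups were all separate, and the log2 fold changes were -2.49 ± 0.095 with LPS, 0.89 ± 0.095 with LPS + Ska against LPS and -1.60 ± 0.095 against DMSO. A pair of identifiers carries this symbol, and the one with the higher TPM was used. Cndp2, a cytosolic dipeptidase that splits cysteinylglycine, had means of 95.7, 54.3 and 86.5 TPM with DMSO, LPS and LPS + Ska. Its log2 fold changes were -0.81 ± 0.072 with LPS and 0.66 ± 0.072 with LPS + Ska against LPS.

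For precursor supply, 2 of 3 tested genes rose with LPS and against DMSO with LPS + Ska. Between LPS + Ska and LPS limma called 0. There 1, Cth, had an unadjusted p below 0.05, and it also passed the adjusted p inside the fold limit. Cth, which makes cysteine from cystathionine, was at 5.13, 4.99 and 6.25 TPM with DMSO, at 27.9, 28.7 and 27.0 TPM with LPS and at 19.2, 19.4 and 18.9 TPM with LPS + Ska. The groups did not overlap, and Cth rose by 2.17 ± 0.089 with LPS and by 1.65 ± 0.089 with LPS + Ska against DMSO. Its log2 fold change of -0.52 ± 0.089 between LPS + Ska and LPS (adjusted p = 0.0031, and 0.025 with the recovered values) was inside the limit. The neutral amino acid transporter Slc1a4 rose by 1.15 ± 0.15 with LPS and by 1.01 ± 0.15 with LPS + Ska against DMSO.

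Of the glyoxalase and esterase genes, Esd, the S-formylglutathione hydrolase, was at 591, 515 and 494 TPM with DMSO, at 449, 463 and 435 TPM with LPS and at 954, 854 and 1054 TPM with LPS + Ska. All columns with LPS + Ska were above all others. It rose by 1.08 ± 0.088 against LPS (adjusted p = 7.7e-05, and 6.3e-04 with the recovered values) and by 0.84 ± 0.088 against DMSO. Hagh, the other glyoxalase enzyme besides Glo1, fell by 0.85 ± 0.12 with LPS + Ska against DMSO. Among the light chains that share Slc3a2, 1 of 4 tested genes was called, Slc7a8, with means of 10.3, 3.83 and 2.05 TPM with DMSO, LPS and LPS + Ska. It fell by 1.24 ± 0.15 with LPS, by 0.65 ± 0.15 with LPS + Ska against LPS and by 1.89 ± 0.15 against DMSO. The second of these calls was lost without LPS replicate 5 (adjusted p = 0.050) and without LPS replicate 7 (-0.53). Slc7a5, a light chain for large neutral amino acids that is named here after its values were seen, had means of 116, 170 and 163 TPM with DMSO, LPS and LPS + Ska. All of its LPS and LPS + Ska columns lay above its DMSO columns. Its log2 fold changes of 0.54 ± 0.075 with LPS (adjusted p = 2.2e-04) and 0.49 ± 0.075 with LPS + Ska against DMSO (adjusted p = 3.9e-04) were inside the limit, and both passed it with median-ratio scaling, at 0.63 and 0.68. The first also passed it, at 0.61, without DMSO replicate 7.

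Among selenoprotein synthesis genes, which serve Gpx1 and Gpx4, 1 of 6 fell with LPS and 2 with LPS + Ska against DMSO. Between LPS + Ska and LPS limma called 0. There 2 had an unadjusted p below 0.05, and both also passed the adjusted p, 1 higher and 1 lower, inside the fold limits. Trnau1ap, which binds the selenocysteine tRNA, fell by 0.69 ± 0.17 with LPS, a call lost at -0.54 without DMSO replicate 7, and by 0.87 ± 0.17 with LPS + Ska against DMSO. Eefsec, the elongation factor for selenocysteine, fell by 0.99 ± 0.078 with LPS + Ska against DMSO. It was at -0.57 ± 0.078 with LPS, just inside the limit, which it passed with a pseudocount of 0.1 (-0.59), without DMSO replicate 5 (-0.63) and without LPS replicate 7 (-0.58). Of the transport genes, 1 of 5 was called, Abcc5, which fell by 0.76 ± 0.11 with LPS. Its value against DMSO with LPS + Ska was -0.55 ± 0.11, and passed the limit without DMSO replicate 7 (-0.62) and without LPS + Ska replicate 6 (-0.64). None of the 3 tested other peroxidases and glutaredoxins (Glrx2, Glrx3 and Glrx5) was called by limma in any comparison. In the order above, 2, 1 and 1 of them had an unadjusted p below 0.05 in the 3 comparisons. In the fit of the deposited columns these also passed the adjusted p, and they stayed inside the fold limits. All calls of these further genes were also made with the recovered values.

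**Figure D4:**
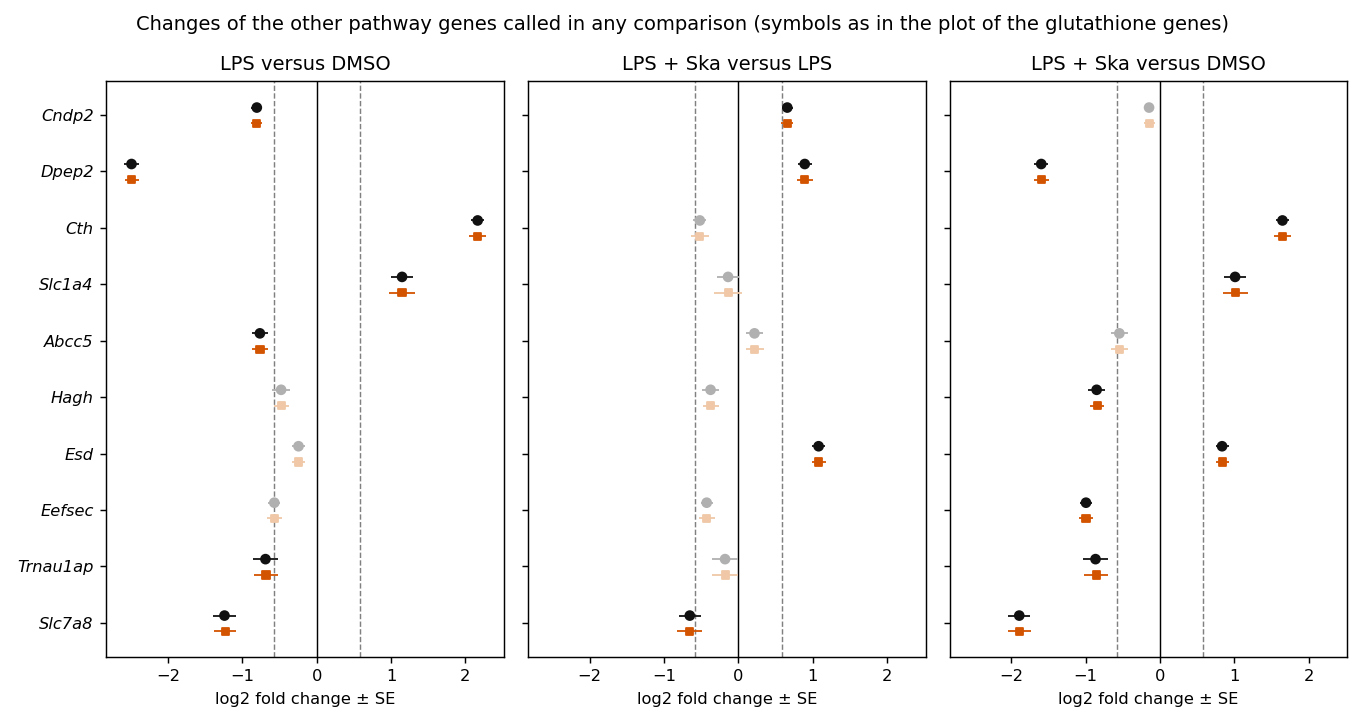
Log2 fold change of TPM + 1 (horizontal axis, bars are the SE) of the 10 further pathway genes called in any comparison, with circles for the deposited columns, squares for the recovered values, dark symbols for calls and dashed lines for the fold limits. Cth (2.17) and Dpep2 (-2.49) lie farthest from 0 with LPS, and Esd (1.08), Dpep2 (0.89) and Cndp2 (0.66) are the genes called higher with LPS + Ska against LPS.

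Genes whose levels ran most like the ligase subunits were sought among 1354 genes with a mean of at least 10 TPM and a gap of at least 1 on the log2 scale between group means. Likeness was Pearson's r of log2(TPM + 1) over 7 values (3 DMSO columns and 2 recovered values of each other group), which share their libraries, and is a description. For Gclm these were Clec4d (r = 0.985), Ptgr1 (0.977), Gm35037 (0.958), Akr1b8 (0.958) and Esd (0.950). Clec4d, a C-type lectin, had means of 206, 130 and 375 TPM with DMSO, LPS and LPS + Ska. Akr1b8, an aldo-keto reductase, had 230, 133 and 380 TPM, and Ptgr1, a prostaglandin reductase, 14.2, 8.43 and 25.9 TPM. For Gclc they were Dnase1l1 (r = 0.997), Rab32 (0.996), Traf3ip3 (0.995), Tubb2a (0.995) and G6pdx (0.995). G6pdx, which makes NADPH in the pentose phosphate pathway, had means of 342, 155 and 224 TPM. The lists of 5 shared no gene.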

How the data were processed

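RNA from RAW264.7 cells (DMSO, LPS, LPS + Ska, 3 samples each) was sequenced by the authors. The values deposited are TPM for 55401 Ensembl genes, of which 55141 matched a symbol. The submitters' processing notes name fastp 0.20.1, HISAT2 2.2.1, StringTie 2.0 and mm10. The labels and the results text of the paper give 24 h of treatment, while its RNA methods give another time. In LPS and LPS + Ska the 2 recovered values per gene are replicate 5 plus and minus 0.5 times its difference from replicate 6. How the columns came to be tied is not given in the sources used here. TPM keeps no depth, so no counting interval could be given.

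The 12819 genes whose mean reached 1 TPM were tested in 1 fit of all 9 columns with limma 3.58.1 in R 4.3.3 (lmFit, eBayes, trended prior variance) on log2(TPM + 1). A call needed an adjusted p (Benjamini-Hochberg) under 0.05 together with a fold change over 1.5 or under 0.67, which are the fold limits of the study. This scale understates changes of genes at low levels. The model was also run on simulated data, with and without tied columns, and the outcome is not given here. Alternatives were a pseudocount of 0.1, no filter or a mean TPM of 5, median-ratio scaling, rescaling without mitochondrial-genome and ribosomal protein genes, recovered values alone or with median-ratio scaling, the compared groups alone, no trend, the adjusted p alone, the replicate number as a block, and leaving out each column.

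The 10 genes and the lists were chosen with earlier results of these data known, and 1 pathway gene is not reported here. Named were all 10, every listed pathway gene called in any comparison, and the 5 genes most like Gclm and Gclc. After subtraction of the group means, columns with the same number correlated at 0.38, 0.15 and 0.13 between LPS and LPS + Ska, whose columns are tied alike, and at -0.032 to 0.080 in the other 6 pairs, so the samples were not treated as paired. Coordinates are from the GENCODE annotation of mm10, and promoters from RefSeq (GRCm38.p6). Transcripts were compared with BLAST+ 2.17.0, and no other gene matched one of the 10 at 95% identity over 200 bases. Permutation tests used scipy 1.17.1, and figures matplotlib 3.10.9 in Python 3.11.15.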

Additional observations from a re-analysis of the deposited data

How the results depend on the processing

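Of 600 values of the 10 glutathione genes under the alternatives, 570 kept their direction and side of the limits, 17 were newly called, 10 lost their call and 3 turned. Several alternatives leave the fold change of these genes as it was, so that only the adjusted p could move. They are the changed filters, the compared groups alone, no trend, the replicate block and a left-out column of a group not compared. The newly called values include those of the adjusted p alone. With the adjusted p alone, 7 glutathione genes were called in LPS + Ska against LPS and 10 against DMSO, 18, 9 and 15 further pathway genes in LPS against DMSO, LPS + Ska against LPS and LPS + Ska against DMSO, and 7734, 3663 and 8116 of all genes, since no fold limit applied. Gpx1 in LPS against DMSO turned to 0.0061 with median-ratio scaling and to 0.013 when recovered values were also used. Cndp2 in LPS + Ska against DMSO turned to 0.046 and 0.060 under the same pair of settings. Slc3a2 in LPS + Ska against LPS ranged from -0.24 to 0.016 when a column was left out, and turned only without LPS + Ska replicate 6. These 3 genes were uncalled in those comparisons, and the cause was not tested. In LPS and LPS + Ska, leaving out a column removes no independent value, so the ranges below do not show the loss of a sample there. Each column left out in turn gave 5 to 7, 2 to 3 and 6 calls among the glutathione genes in the 3 comparisons, 7 to 8, 3 to 4 and 8 to 9 among the further pathway genes, and 3996 to 4238, 905 to 1499 and 4514 to 4810 among all genes. The ratio of Gclm to Gclc then differed by 0.53 to 0.61, 0.88 to 0.96 and 1.44 to 1.52 on the log2 scale, and that of Slc7a11 to Slc3a2 by 2.52 to 2.70, 1.27 to 1.70 and 3.86 to 4.29. The fit with the replicate block called the same 6, 2 and 6 glutathione genes and the same further pathway genes, and 4235, 1198 and 4729 of all genes. Depth is unknown, and 2 independent values in each of LPS and LPS + Ska limit every comparison.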
